A study of Homo sapiens with 8 samples.

Results

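Glutathione, the main thiol of the cell, is made from glutamate, cysteine and glycine, and 9 genes of its turnover and of the transsulfuration pathway that supplies cysteine were followed here in human keratinocytes with inhibited mitochondria. The genes were chosen by symbol for their place in the pathway, with earlier results of these data known. They are CHAC1, CHAC2, GGCT and OPLAH of glutathione breakdown, GSS of its synthesis, GSR of its reduction, GPX4 of its use, and CTH and CBS of transsulfuration. All 9 were found among the 61806 genes of the table, and all 9 passed the filter on low counts that left 14893 genes to be tested.

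N/TERT-1 is an immortalized line of human epidermal keratinocytes, here of wild-type genotype. Cells were treated with ethanol, the solvent control, or with O/A, which is oligomycin, an inhibitor of the mitochondrial ATP synthase, combined with antimycin A, an inhibitor of complex III of the respiratory chain. Each condition has 4 libraries, each from an independent experiment. Treatment lasted 4 hours, which the sample labels do not state, and the labels give no dose. Both conditions come from a single cell line grown in keratinocyte serum-free medium, so other keratinocytes were not sampled.

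Poly(A) RNA was sequenced, and 17210404 to 20999927 reads were counted per library. No library was a copy of another, since chi-square tests over 11727 genes gave 1.76 to 5.74 per degree of freedom within a condition, above sampling noise, and 52.9 to 64.0 between conditions. Markers of basal keratinocytes were high, and KRT5 had a mean of 1433 FPKM under ethanol against 1128 under O/A, where FPKM is the read count scaled by exonic length and library total. The summed level of the 8 keratinocyte markers was 3574 to 3860 FPKM in the ethanol libraries and 3082 to 3260 FPKM in O/A, and by the thresholds given below 1 of them rose, DSG3 (log2 fold change 0.99), and 3 fell, KRT5 the most (-0.30). The part of this shift in the results was not tested. The summed level was at most 2.95 FPKM for 6 fibroblast markers, 1.81 FPKM for 5 melanocyte markers, 0.41 FPKM for 5 leukocyte markers and 0.08 FPKM for 4 endothelial markers. The fibroblast sum was mostly COL1A1, with a mean of 2.64 FPKM under ethanol and 2.46 under O/A. The melanocyte markers MLANA and TYR were at 0 in every library, whereas MITF held 128 to 168 counts per library and PMEL 17 to 45. In bulk RNA, fewer cells of a type and less RNA per cell cannot be told apart.

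CHAC1 and CHAC2 are cytosolic enzymes that cut glutathione into oxoproline (pyroglutamate) and cysteinylglycine. GGCT forms oxoproline from other gamma-glutamyl compounds, and OPLAH opens oxoproline to glutamate, which returns to synthesis. CBS joins homocysteine and serine to cystathionine, from which CTH releases cysteine. CHAC1 is known as a target of the integrated stress response, the pathway in which the transcription factor ATF4 is made when translation initiation is held back.

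RefSeq promoter windows, which run from 250 bases before to 50 bases after a transcription start of GRCh38.p14, were found for 5 of the 9 genes (CHAC1, CHAC2, CTH, CBS and GPX4), 10 windows in all. The windows of CHAC2 overlap each other, as do windows 1 and 2 of GPX4, so the 10 windows are not all separate sequences. The windows were searched on both strands for TGATGNAA, the core of the C/EBP-ATF composite element at which ATF4 is known to bind, and for TGACNNNGC, the antioxidant response element. TGATGNAA was found in 1 of the 10 windows, that of CHAC1, and in 3.62% of all 35116 promoter windows. TGACNNNGC was found in 1 of the 10 windows, the most upstream one of CBS, and in 13.3% of all windows. The CHAC1 match lies 209 bases before the RefSeq start and the CBS match 83 bases before it, and the matches do not overlap another motif. The stretch of 30 bases around each match is shown first, at chr15:40953251-40953280 (plus strand) for CHAC1 and chr21:43076441-43076470 (minus strand) for CBS, with the matched letters in capitals. The CHAC1 stretch also lies inside the first exon of a longer annotated CHAC1 transcript. The promoters of CHAC2 (chr2:53767533-53767782, plus strand) and CTH (chr1:70411018-70411217, plus strand) are shown for comparison, up to the RefSeq start and up to the first annotated exon, since these genes differ in their response to O/A and none of their windows holds either motif.
CHAC1: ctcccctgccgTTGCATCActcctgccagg
CBS: ccggctctggGCGCGGTCAcgcggggcgct
CHAC2: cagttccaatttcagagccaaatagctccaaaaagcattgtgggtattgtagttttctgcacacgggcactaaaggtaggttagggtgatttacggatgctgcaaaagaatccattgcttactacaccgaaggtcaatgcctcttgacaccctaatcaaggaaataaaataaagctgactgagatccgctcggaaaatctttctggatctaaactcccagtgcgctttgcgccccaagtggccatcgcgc
CTH: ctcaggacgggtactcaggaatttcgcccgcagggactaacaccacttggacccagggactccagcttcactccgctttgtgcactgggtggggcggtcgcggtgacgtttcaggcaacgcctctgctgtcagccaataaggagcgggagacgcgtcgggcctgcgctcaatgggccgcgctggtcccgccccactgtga

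O/A raised 4 of the 9 genes, CHAC1, CTH, CBS and OPLAH, and lowered none past the thresholds. CHAC1 rose 29.5-fold, CTH 8.85-fold, CBS 4.52-fold and OPLAH 1.37-fold. A gene was called when its adjusted p-value in edgeR's quasi-likelihood test was at most 0.05 and its absolute log2 fold change above 0.25, the thresholds that the study also used. By this rule 34.7% of all genes tested were called, 15.8% as higher and 18.9% as lower in O/A. A log2 fold change above 1 was reached by CHAC1, CTH and CBS, 3 of the 9 genes, and by 2.56% of all genes tested, or 5.35% with falls of that size included. An adjusted p-value of at most 0.05, whatever the fold change, was reached by 7 of the 9 genes and by 53.7% of all genes tested. For 6 of the 9 genes every O/A library lay above every ethanol library, and for the other 3 the groups overlapped. Over all genes tested, the groups did not overlap for 47.6%, with O/A above for 22.8%. The 9 genes were chosen with earlier results of these libraries known, so their counts are not independent evidence.

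**Figure D1:**
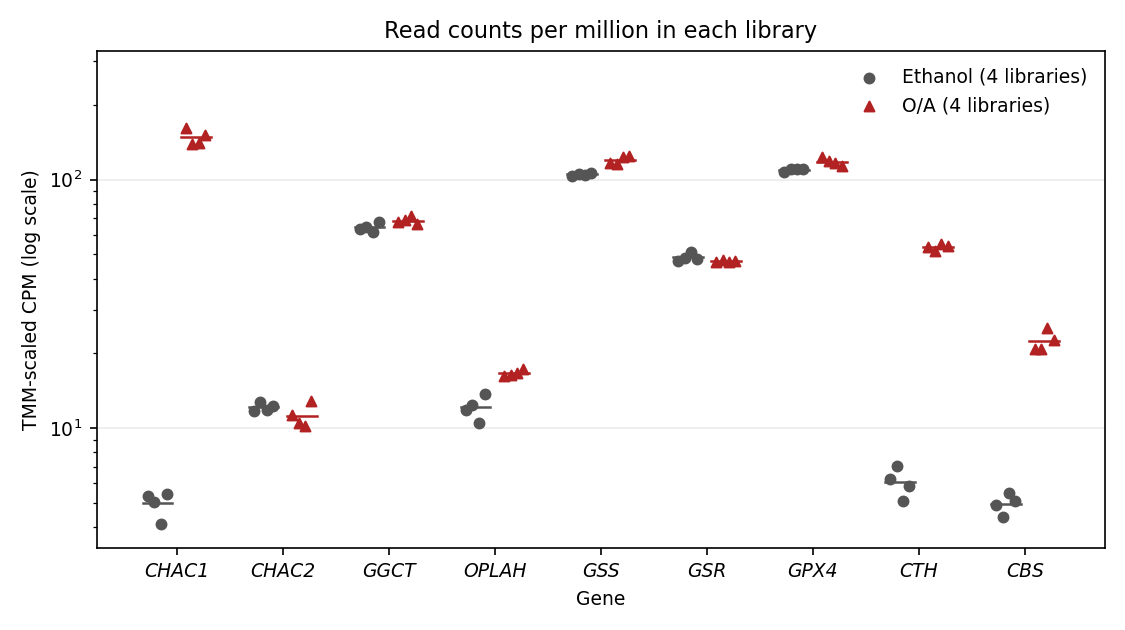
Points show CPM, the counts scaled to library size with edgeR's TMM factors (log axis), of the 9 genes (x axis) in each of the 4 ethanol libraries (grey circles) and 4 O/A libraries (red triangles), and bars show the group means. CHAC1, CTH and CBS stand far apart between conditions, from 4.98 to 148 CPM for CHAC1, while CHAC2, GGCT and GSR overlap.

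The enzymes that open glutathione moved apart. CHAC1 (ENSG00000128965, chromosome 15, 40952962 to 40956512, plus strand) had 99, 90, 72 and 116 counts in ethanol replicates 1 to 4 and 2798, 2579, 2662 and 2621 counts in the O/A replicates in the same order. Scaled by TMM, these were 5.33, 5.05, 4.10 and 5.45 CPM in ethanol and 161, 139, 141 and 151 CPM in O/A. Every O/A library was thus far above every ethanol library, and the libraries within a condition lay close together. CHAC1 rose by a log2 fold change of 4.88 (standard error 0.065, adjusted p = 5.93e-33 in edgeR's quasi-likelihood test), the third largest rise of all 14893 genes tested.

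CHAC2 (ENSG00000143942, chromosome 2, 53767804 to 53775196, plus strand), the paralog of CHAC1 known for a slower and constitutive breakdown of glutathione, had 11.7, 12.7, 11.8 and 12.3 CPM in ethanol and 11.3, 10.5, 10.2 and 12.9 CPM in O/A, from 193 to 262 counts per library. O/A replicate 4 was the highest of the 8 libraries and the other 3 O/A libraries the lowest, so the groups overlapped. The log2 fold change of -0.12 did not pass the test (adjusted p = 0.245 in edgeR's quasi-likelihood test), and its 95% interval covers a change from -18.0% to 3.63%. CHAC2 lies within the locus of ASB3 on the opposite strand, which held 176 to 219 counts per library with a log2 fold change of 0.10 (adjusted p = 0.356 in the same test), and whether counting used strand is not given in the sources used here.

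The ratio of CHAC1 to CHAC2 counts within a library does not depend on scaling. CHAC1 had 0.454, 0.396, 0.348 and 0.443 times the counts of CHAC2 in ethanol and 14.3, 13.2, 13.8 and 11.7 times its counts in O/A. The mean log2 ratio moved by 5.02 (exact permutation test, two-sided, p = 0.0286, the smallest that 4 against 4 libraries allow, and 0.0286 after Benjamini-Hochberg adjustment over 3 ratios). Per length, CHAC1 made up 20.7% ± 1.97 (SD, n = 4) of the summed FPKM of both paralogs in ethanol and 89.4% ± 0.842 (SD, n = 4) in O/A. Together the paralogs had 11.9 ± 0.521 FPKM under ethanol against 79.3 ± 5.30 FPKM under O/A (SD, n = 4 each).

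GGCT (ENSG00000006625, chromosome 7, 30496621 to 30504841, minus strand) had 63.3, 64.6, 61.5 and 67.7 CPM in ethanol and 67.5, 68.9, 71.2 and 66.3 CPM in O/A. The groups overlapped, since ethanol replicate 4 exceeded O/A replicates 1 and 4. The log2 fold change was 0.09 and the adjusted p 0.0499 in edgeR's quasi-likelihood test, so the gene stayed within the fold change threshold, and the adjusted p was above 0.05 in 13 of 16 alternative settings. Its pseudogene GGCTP1 held 0 to 4 counts per library, the pseudogenes GGCTP2 and GGCTP3 held 0, and the overlapping ENSG00000281039 held at most 1.

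OPLAH (ENSG00000178814, chromosome 8, 144051266 to 144063965, minus strand) had 11.8, 12.4, 10.5 and 13.8 CPM in ethanol and 16.2, 16.3, 16.7 and 17.4 CPM in O/A, from 184 to 316 counts per library. All O/A libraries lay above all ethanol libraries. OPLAH rose by a log2 fold change of 0.45 (standard error 0.078, adjusted p = 2.01e-06 in edgeR's quasi-likelihood test), an increase of 36.8% with a 95% interval of 22.8% to 52.4%. OPLAH was thus the only called gene of the 9 with less than a log2 fold change of 1. SMPD5, which overlaps OPLAH by 390 bases on the opposite strand, held 0 to 3 counts per library.

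**Figure D2:**
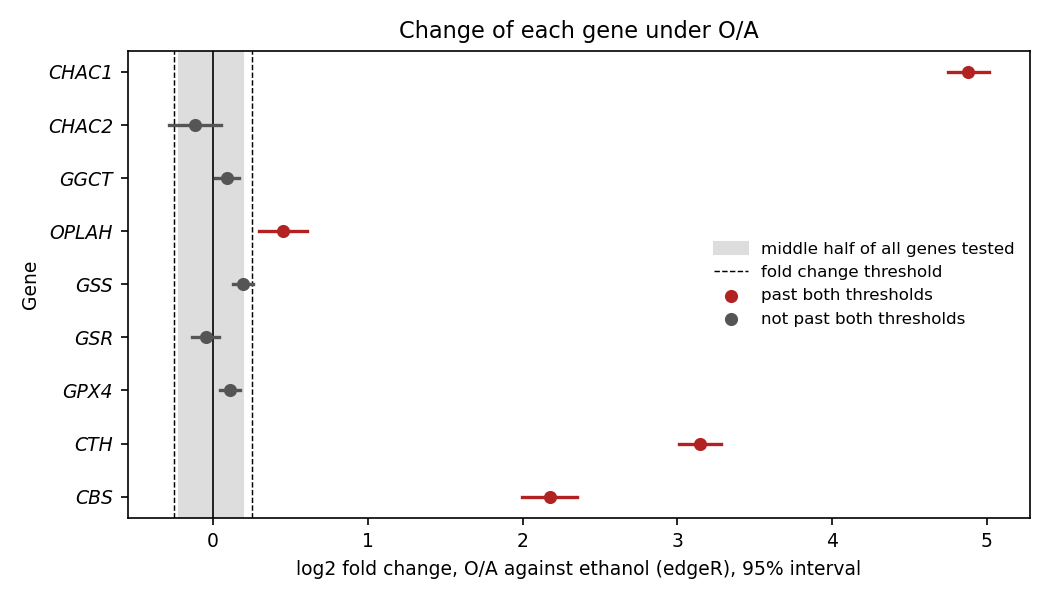
Points show the log2 fold change of each gene (y axis) in O/A against ethanol from edgeR with its 95% interval, dashed lines the threshold of 0.25, and the grey band the middle 50% of all genes tested, from -0.22 to 0.19. CHAC1, CTH, CBS and OPLAH lie beyond the threshold, and the other 5 genes have point estimates between -0.12 and 0.19.

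The transsulfuration genes both rose. CTH (ENSG00000116761, chromosome 1, 70411218 to 70439851, plus strand) had 116, 126, 89 and 124 counts in ethanol and 929, 962, 1040 and 940 counts in O/A. These were 6.25, 7.07, 5.07 and 5.83 CPM in ethanol and 53.4, 51.8, 55.1 and 54.0 CPM in O/A, with a wide gap between the conditions. CTH rose by a log2 fold change of 3.15 (standard error 0.067, adjusted p = 3.38e-39 in edgeR's quasi-likelihood test), rank 19 among the rises of all genes tested.

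CBS (ENSG00000160200, chromosome 21, 43053191 to 43076943, minus strand) had 91, 78, 96 and 108 counts in ethanol and 363, 388, 478 and 392 counts in O/A. These were 4.90, 4.37, 5.47 and 5.08 CPM in ethanol and 20.9, 20.9, 25.3 and 22.5 CPM in O/A, again without overlap. CBS rose by a log2 fold change of 2.18 (standard error 0.089, adjusted p = 5.83e-27 in edgeR's quasi-likelihood test), rank 64 among the rises. The deposited FPKM of CBS, which divides by an exonic length of 6786 bases, was low. It was 0.740 ± 0.0707 FPKM under ethanol against 3.25 ± 0.297 FPKM under O/A (SD, n = 4 each). On log2(FPKM + 1) the log2 fold change of CBS was 1.28.

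The reference genome holds a near-identical copy of CBS on the same chromosome. Whether this copy is a separate gene in these cells was not tested. The table also lists ENSG00000274276, described as cystathionine-beta-synthase like, on chromosome 21 from 6444869 to 6467513. Of 5806 windows of 50 bases in the annotated exons of CBS, 90.6% occurred letter for letter in that locus of the reference genome. The copy held 1 to 6 counts under ethanol and 12 to 25 under O/A, in all 4.61% of the counts of CBS. How reads that fit both loci were counted is not given in the sources used here, so the level of CBS is uncertain. With the counts of both loci summed, the log2 fold change was 2.19.

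CTH rose by a larger factor than CBS. CTH had 1.27, 1.62, 0.927 and 1.15 times the counts of CBS in ethanol and 2.56, 2.48, 2.18 and 2.40 times its counts in O/A. The mean log2 ratio was higher by 0.98 in O/A (exact permutation test, two-sided, p = 0.0286, adjusted p = 0.0286 over 3 ratios). Together they had 3.28 ± 0.275 FPKM under ethanol against 25.1 ± 0.766 FPKM under O/A (SD, n = 4 each). The ratios and these sums depend on the level of CBS, which is uncertain because of its copy in the reference genome.

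**Figure D3:**
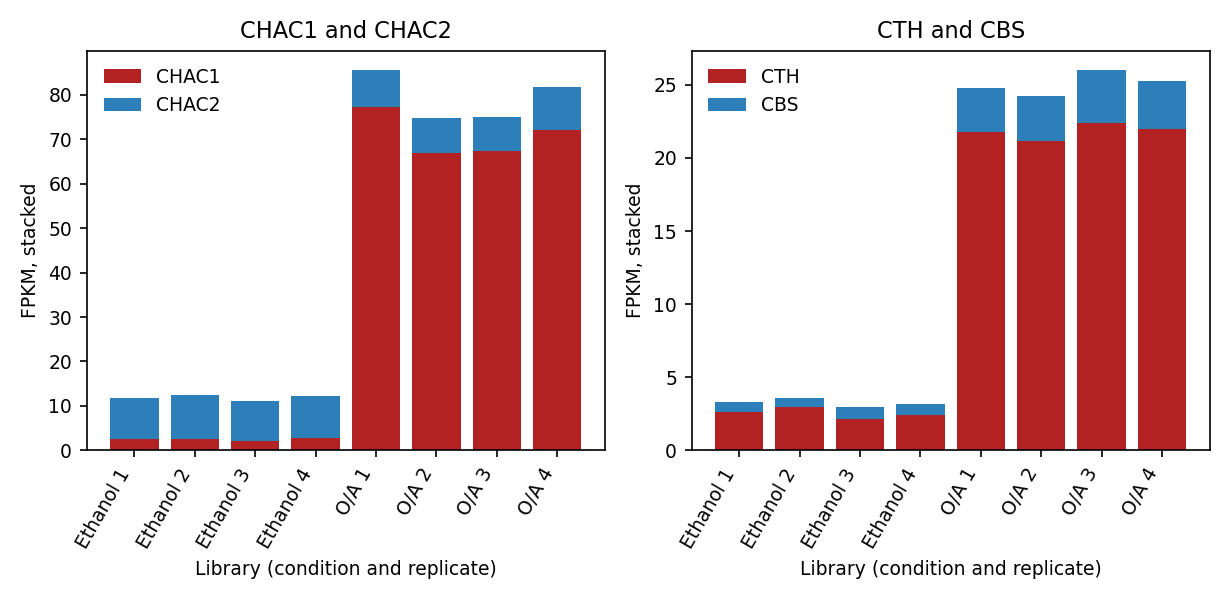
Stacked bars show the FPKM (y axis) of CHAC1 with CHAC2 (left) and of CTH with CBS (right) in each library (x axis). CHAC2 made up most of its pair in ethanol and CHAC1 in O/A, whereas CTH made up 72.3% to 87.8% of the deposited FPKM of its pair. This share is uncertain, because it depends on exonic length and because reads of CBS can also fit its copy in the reference genome.

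The genes of synthesis, reduction and use stayed within the fold change threshold. GSS (ENSG00000100983, chromosome 20, 34928432 to 34956027, minus strand) adds glycine in the last step of glutathione synthesis. It had 104, 106, 104 and 106 CPM in ethanol and 116, 116, 124 and 124 CPM in O/A, with every O/A library above every ethanol library. The log2 fold change was 0.19 (adjusted p = 1.71e-06 in edgeR's quasi-likelihood test), a difference of 14.2% with a 95% interval of 9.13% to 19.5%. MYH7B, which overlaps GSS by 218 bases on the opposite strand, held 4 to 12 counts per library.

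GSR (ENSG00000104687, chromosome 8, 30678066 to 30727846, minus strand), which returns oxidized glutathione to its reduced form with NADPH, had 47.0, 48.5, 51.2 and 47.8 CPM in ethanol and 46.7, 47.6, 46.6 and 47.2 CPM in O/A. The groups overlapped. The log2 fold change of -0.05 did not pass the test (adjusted p = 0.374 in edgeR's quasi-likelihood test), with a 95% interval from -8.89% to 2.79%. In 2 of 16 alternative settings, log2(FPKM + 0.1) and log2(FPKM + 1), the adjusted p from limma was 0.0411, with log2 fold changes of -0.093 and -0.087. The median log2 fold change over all genes was also lower in these settings, -0.043 and -0.028 against -0.00040 in the main edgeR fit.

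GPX4 (ENSG00000167468, chromosome 19, 1103994 to 1106791, plus strand) is the selenoprotein that reduces lipid hydroperoxides with glutathione and protects cells from ferroptosis. It had 107, 110.5, 110.0 and 110.4 CPM in ethanol and 123, 118, 117 and 114 CPM in O/A. All O/A libraries lay above all ethanol libraries, by a small margin. The log2 fold change was 0.11 (adjusted p = 0.00444 in edgeR's quasi-likelihood test), a difference of 7.66% with a 95% interval of 2.92% to 12.6%, and the adjusted p was above 0.05 in 3 of 16 alternative settings, the highest 0.0958.

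GSR and GPX4 did not move by the same factor. GSR had 0.433 to 0.465 times the counts of GPX4 in ethanol and 0.379 to 0.416 times its counts in O/A. The mean log2 ratio fell by 0.15 (exact permutation test, two-sided, p = 0.0286, adjusted p = 0.0286 over 3 ratios).

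The order of the 9 genes by level changed most at CHAC1. In ethanol, per length, the order was GPX4 with 57.0 ± 0.936 FPKM, GGCT with 40.9 ± 1.61, GSS with 17.3 ± 0.203, GSR with 13.7 ± 0.570 and CHAC2 with 9.41 ± 0.364 FPKM (SD, n = 4). OPLAH with 2.77 ± 0.304, CTH with 2.54 ± 0.345 and CHAC1 with 2.47 ± 0.294 FPKM followed and overlapped between libraries. CBS had the lowest mean of the deposited values in both conditions. Its place in the order is uncertain because of its copy in the reference genome and its exonic length of 6786 bases. In O/A, CHAC1 was the highest with 70.9 ± 4.80 FPKM, above GPX4 with 59.4 ± 2.06 and GGCT with 42.2 ± 1.29 FPKM (SD, n = 4). CTH with 21.8 ± 0.496 FPKM lay above GSS with 19.1 ± 0.683 FPKM (SD, n = 4). GSR with 12.8 ± 0.155 and CHAC2 with 8.42 ± 0.886 FPKM followed, and OPLAH with 3.69 ± 0.113 FPKM overlapped with the deposited values of CBS. This order depends on the exonic length that the FPKM divides by, 2414 bases for CTH against 6166 for GSS. Without division by length, the mean under O/A was 53.6 CPM for CTH and 120 CPM for GSS.

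Over the 8 libraries, the 3 genes with the profile nearest to that of CHAC1 among 11645 genes were ASNS, STC2 and DDIT3, at Euclidean distances of 0.789, 1.19 and 2.06 between log2 CPM values centred on the ethanol mean. For CTH they were DNAJB9 (0.551), HERPUD1 (0.595) and GDF15 (0.667), and for CHAC2 they were TARS3 (0.116), PCED1B (0.119) and LINC02535 (0.129). With values centred this way, the distance depends largely on how similar the log2 fold changes are. Shared regulation was not tested.

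The neighbouring pathways were followed through lists of genes, whose counts stand against 15.8% of all genes tested that rose and 18.9% that fell. These lists, too, were chosen with earlier results known. Of 9 genes of cysteine supply and glutathione synthesis, 6 rose and none fell, with a median log2 fold change of 0.88 against -0.00040 over all genes tested. The largest rise was that of SLC7A11, the cystine transporter, from 5.33 to 30.0 FPKM (log2 fold change 2.53, adjusted p = 1.08e-33 in edgeR's quasi-likelihood test). The other called genes of this list were the transporter genes SLC3A2, SLC1A4, SLC1A5 and SLC6A9, and SHMT2. GCLC and GCLM, the subunits of the enzyme of the first and rate-limiting step of glutathione synthesis, were singled out after their values were seen. They had log2 fold changes of 0.21 and 0.18, both within the threshold, with adjusted p-values of 4.86e-04 and 6.74e-05 in the same test.

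Of the 14 genes of extracellular and other glutathione breakdown and export, 5 had too few counts to be tested and 1 of the other 9 rose, GGT7 (log2 fold change 0.39), with a median of 0.06. Of 13 tested genes of the methionine cycle, which yields the homocysteine for transsulfuration, none rose and 2 fell, with a median of 0.08. The larger fall was that of MAT2A, which makes the methyl donor S-adenosylmethionine, from 71.3 to 45.1 FPKM (log2 fold change -0.62, adjusted p = 3.17e-25 in edgeR's quasi-likelihood test). Of 11 tested genes of cysteine breakdown and sulfide oxidation, 1 rose, the aminotransferase GOT1 (log2 fold change 1.51), and 1 fell, the sulfite oxidase SUOX (-0.61), with a median of 0.07. Without O/A replicate 2, 4 genes of this list were called, 2 in each direction.

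Among the users of glutathione, where the shares that rose were again to be read against 15.8% of all genes tested, 2 of 8 tested peroxidases and glutaredoxins rose and none fell, with a median log2 fold change of 0.14. The glutaredoxin GLRX rose the most, from 1.32 to 4.34 FPKM (log2 fold change 1.76, adjusted p = 2.76e-26 in edgeR's quasi-likelihood test). Of 17 tested glutathione transferases and glyoxalases 3 rose and none fell, with a median of -0.0030, and the largest value, a log2 fold change of 1.28 for GSTM2, rests on 3 to 17 counts per library. On log2(FPKM + 1), 1 gene of this list was called. Of 13 tested genes of NADPH supply 2 rose and none fell, with a median of 0.03, and MTHFD2, a mitochondrial enzyme of folate metabolism, rose the most (log2 fold change 1.41). On log2(FPKM + 0.1) 2 genes of NADPH supply rose and 2 fell, on log2(FPKM + 1) 1 was called, and with quantile normalization 2 rose and 1 fell. All 8 markers of the integrated stress response rose, ASNS by a log2 fold change of 5.22, DDIT3 by 3.90, SESN2 by 2.43, PSAT1 by 2.23, ATF3 by 1.98, TRIB3 by 1.74, PHGDH by 1.66 and ATF4 by 1.54, with a median of 2.10. Earlier results of these libraries were known when the markers were listed, so their direction is not independent evidence.

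**Figure D4:**
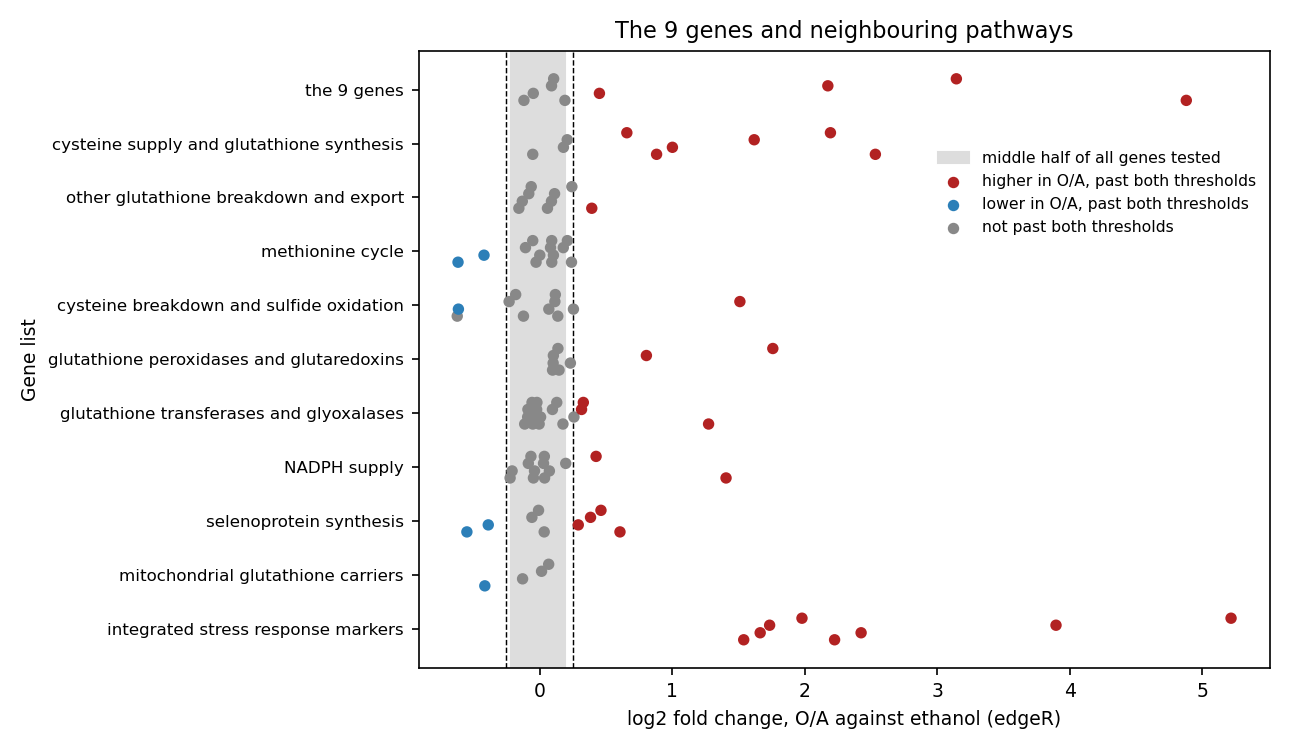
Each point is the log2 fold change of a tested gene in O/A against ethanol (x axis), by list (y axis), in red or blue where it passed both thresholds, with dashed lines at the threshold of 0.25 in either direction and the grey band the middle 50% of all genes tested. In the 9 neighbouring pathway lists 19 of 93 tested genes rose, 6 of them in cysteine supply and glutathione synthesis, 6 fell and 68 passed neither way, against 15.8% and 18.9% of all genes tested that rose and fell.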

How the data were processed

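Per the labels' processing notes and the study's methods, alignment to GRCh38.p13 used HISAT2 2.0.1 and gene counting HTSeq 0.6.1. The Ensembl release, strand setting and handling of reads with several matches are not given in the sources used here. The deposited counts are not normalized. The authors' FPKM values lie within 0.005 of the count divided by exonic length and library total. A deposited table of the authors' own comparison, with fold changes and p-values, was not used. Groups and replicates were taken from the sample titles.

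Counts were analysed with edgeR 4.0.16 (TMM, robust quasi-likelihood test, Benjamini-Hochberg adjustment) in R 4.3.3, over genes that reached 10 counts in 4 or more libraries. Ratios were compared by exact permutation tests. Alternatives used DESeq2 1.42.0 and limma 3.58.1. The tests were tested on simulated data. The p-values of edgeR, DESeq2 and limma set the difference between conditions against the spread between these libraries within a condition. Those of the permutation tests set it against exchanged labels of these libraries.

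The genes and lists were chosen with earlier results of these data known. All 9 genes are named, with the largest called rise and fall of each other list and all stress response markers. The 3 nearest profiles of CHAC1, CHAC2 and CTH are named too, with copies or overlapping genes that hold counts. The other called genes of cysteine supply and glutathione synthesis and the other mitochondrial carriers are named in addition. The 20380 symbols missing from the table were filled from a GENCODE name table.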

Additional observations from a re-analysis of the deposited data

Results flagged for a closer look

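Among 24 groups of 4 libraries, covering the 9 genes and the 3 ratios in each condition, 1 group had a library standing apart by Dixon's test, and about 1.2 would by chance. GPX4 had 107 TMM-scaled CPM in ethanol replicate 1 against 110.0 to 110.5 CPM in the other ethanol libraries.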

How the results depend on the processing

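Every log2 fold change of the 9 genes kept its direction in the 16 alternatives, and in the summed counts of both loci for CBS, and the same genes passed both thresholds together. The adjusted p alone crossed 0.05 for GGCT in 13 alternatives, GPX4 in 3 and GSR in 2. The 4 calls were made in every alternative scaling, test, filter and fit that left out 1 library. Without a fold change threshold 7 of the 9 genes were called, and 3 at an absolute log2 fold change above 1. Among all genes these counts were 7999 and 797 against 5165, and among the 10 other lists together 55 and 16 against 33. When each library was left out in turn, 4987 to 5114 genes were called, 4 of the 9 genes in each case, and 33 to 36 in the lists. The smallest log2 fold changes of the called genes were 4.38 for CHAC1, 2.69 for CTH, 1.28 for CBS and 0.32 for OPLAH.

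Ethanol and O/A libraries with the same number did not deviate together (correlations 0.039, -0.0021, -0.023 and 0.068), so no deviation shared by number was seen. Whether libraries with the same number came from the same experiment is not given in the sources used here. Under a replicate block, the log2 fold change of CBS was 2.17, and the ratio differences of 5.02 for CHAC1 to CHAC2, 0.98 for CTH to CBS and -0.15 for GSR to GPX4 had p = 0.125, the smallest that an exact permutation of 4 pairs allows, so that test could not pass. With log2(FPKM + 1) the CTH to CBS difference was 1.41. The depth limits genes with few reads, such as GSTM2.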

Other observations

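GPX4 needs selenocysteine, and the genes that build and insert this amino acid moved in both directions. Of 9 tested, 4 rose and 2 fell past the thresholds, with a median log2 fold change of 0.04, against 15.8% and 18.9% of all genes tested. The largest rise was that of PSTK, the kinase that prepares the selenocysteine tRNA, with a log2 fold change of 0.61 (standard error 0.12, adjusted p = 1.78e-05 in edgeR's quasi-likelihood test), from 0.698 to 1.03 FPKM. The largest fall was that of EEFSEC, the elongation factor that delivers this tRNA to the ribosome, with a log2 fold change of -0.55 (standard error 0.082, adjusted p = 1.22e-07 in the same test), from 6.01 to 3.98 FPKM.

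Of 4 mitochondrial carriers that have been linked to glutathione, 1 fell past the thresholds and none rose, against 18.9% and 15.8% of all genes tested. The fall was that of SLC25A10, the dicarboxylate carrier, with a log2 fold change of -0.41 (adjusted p = 0.00606 in edgeR's quasi-likelihood test) and only 60 to 107 counts per library. SLC25A39, SLC25A40 and SLC25A11 were not called, with log2 fold changes of -0.13, 0.07 and 0.02.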
